A study of Homo sapiens with 45 samples.

Results

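The 10 genes described here are ones that T-cell acute lymphoblastic leukemia (T-ALL) lines carry in different combinations and that fall, in some of these lines, within hours of blocking the BAF chromatin remodeler: RGS16, KCNK17, BHLHE23, OSM, SCEL, MAL, ACP5, MMP9, RASAL1 and CD300A. They were taken by symbol, 10 of the 38557 genes in the deposited expression tables, and were chosen by measured values. The choice was of genes high in solvent-treated control cells of some lines that fall there after 6 h of BRM014. BHLHE23 is an exception in TALL-1, its highest line, where treated and control libraries overlapped. The members' levels in control cells and their 6 h differences are therefore given as description without a test, and support nothing. Members are tested where the choice did not use the values. These are Jurkat cells after 8 d of BRM014 and Jurkat cells with guide RNAs against BAF subunits.

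The 4 lines, Jurkat, TALL-1, KOPT-K1 and CCRF-CEM, are established human T-ALL cultures, each 1 line and so 1 genetic background. Each was treated for 6 h with 1 µM BRM014, an inhibitor of the BAF ATPases SMARCA4 and SMARCA2, or with its solvent, 0.01% DMSO. Jurkat was also treated for 8 d with BRM014 or DMSO, and Cas9-expressing Jurkat cells received, 10 d before RNA isolation, gAAVS1 (the control guide), gARID1A, gARID1A_1B, gSMARCA4 or gSMARCA4_A2. All 15 groups had 3 libraries, which the labels number as biological replicates, 45 libraries in all. The guide groups are selected pools of transduced cells, so edited and unedited cells are mixed.

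BAF complexes use ATP to slide and evict nucleosomes, and in many cell types they hold open the distal enhancers from which lineage-restricted genes are driven. SMARCA4 and SMARCA2 are the alternative motors, and ARID1A and ARID1B the alternative large subunits of the canonical form. Genes under distal enhancers tend to be switched on in few cell types, while housekeeping genes read from broadly open promoters are found in most.

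The 7 members with an entry among RefSeq promoters (GRCh38.p14, 250 bases before to 50 bases after the transcription start) do not share a promoter type. Printed are 4 that mark the contrasts met below: SCEL, high in KOPT-K1, RGS16, high in CCRF-CEM, CD300A, high in 3 lines, and BHLHE23, the member whose response differed most between lines. Capitals mark matches on either strand to any of 6 motifs. These were TGTGGT for RUNX factors, then AGATAA for GATA factors, then GGAAGT for ETS factors, then CAGCTG as an E-box, then TGANTCA for AP-1, and last TATAAA as the TATA box.
SCEL, chr13:77535456-77535755, plus strand: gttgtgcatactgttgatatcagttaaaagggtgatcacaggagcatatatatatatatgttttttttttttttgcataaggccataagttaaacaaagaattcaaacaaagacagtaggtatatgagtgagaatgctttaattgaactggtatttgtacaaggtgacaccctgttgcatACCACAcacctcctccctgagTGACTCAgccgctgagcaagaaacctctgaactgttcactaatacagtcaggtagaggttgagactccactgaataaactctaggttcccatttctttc
RGS16, chr1:182604340-182604639, minus strand: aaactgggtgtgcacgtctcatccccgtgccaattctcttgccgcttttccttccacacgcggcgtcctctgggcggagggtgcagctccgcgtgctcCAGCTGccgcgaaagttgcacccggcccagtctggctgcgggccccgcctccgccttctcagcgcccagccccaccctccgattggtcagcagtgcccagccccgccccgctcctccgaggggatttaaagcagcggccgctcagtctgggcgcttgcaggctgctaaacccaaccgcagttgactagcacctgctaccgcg
CD300A, chr17:74466123-74466422, plus strand: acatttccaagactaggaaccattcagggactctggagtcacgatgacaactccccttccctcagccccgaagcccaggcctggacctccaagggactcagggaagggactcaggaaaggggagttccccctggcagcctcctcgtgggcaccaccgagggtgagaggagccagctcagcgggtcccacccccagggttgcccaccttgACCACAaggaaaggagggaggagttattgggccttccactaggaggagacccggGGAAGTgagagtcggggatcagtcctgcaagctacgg
BHLHE23, chr20:63006915-63007214, minus strand: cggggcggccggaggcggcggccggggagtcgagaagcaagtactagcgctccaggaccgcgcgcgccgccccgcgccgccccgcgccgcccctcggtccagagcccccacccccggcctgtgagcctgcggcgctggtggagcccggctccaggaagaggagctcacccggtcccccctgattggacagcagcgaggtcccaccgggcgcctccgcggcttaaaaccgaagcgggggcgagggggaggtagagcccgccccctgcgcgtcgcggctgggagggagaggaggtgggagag

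The SCEL promoter is poor in G and C, at 38.3%, against a median of 58.7% over the 35116 promoters of the table, and holds a RUNX match 70 bases and an AP-1 match 49 bases before the start. The CD300A promoter printed has 61.7% G and C, with a RUNX match 41 bases before and an ETS match 13 bases after the start. Another entry of CD300A has 57% G and C, no RUNX match and an ETS match 248 bases before its start. The RGS16 promoter has 67.0% G and C and an E-box match 152 bases before the start. The BHLHE23 promoter, at 76.7% G and C, and that of MAL, at 75.0%, hold no match to the letters searched, and neither does that of KCNK17. ACP5 has several entries that overlap in part, at 59.7 to 70.3% G and C. Each holds an E-box or ETS match, and the entry at 59.7% has a RUNX match 219 bases before its start. Of the 11 entries of these 7 members, 3 hold the RUNX letters, 5 ETS, 4 the E-box, 1 AP-1 and 0 GATA or the TATA box. Over all promoters of the table, 13.1% hold the RUNX letters, 10.3% those of GATA, 22.8% ETS, 17.9% the E-box, 7.71% AP-1 and 11.5% the TATA box, so single matches are common. The members lie on chromosomes 1 (RGS16, 182598623 to 182604389), 2 (MAL, 95025708 to 95053992), 6 (KCNK17, 39299001 to 39314419), 12 (RASAL1, 113099278 to 113136756), 13 (SCEL, 77535706 to 77645263), 17 (CD300A, 74466373 to 74484798), 19 (ACP5, 11574660 to 11578975), 20 (BHLHE23, 63005927 to 63006964, and MMP9, 46008908 to 46016561) and 22 (OSM, 30262829 to 30266851) of the same build. The motif matches are letters in a window, not measured binding.

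Sequencing gave 29.7 to 47.9 M reads on genes per Jurkat library and 19.7 to 27.0 M per library of the other lines (M, 1000000 reads). Levels are in TPM, transcripts scaled for gene length and library total by the authors, so that genes can be compared. Jurkat RNA was extracted and made into libraries with other kits than that of the other lines, and mitochondrial messages held 20.0 to 24.9% of its TPM against 4.99 to 8.04% elsewhere. Line, kit and table cannot be told apart between Jurkat and the rest, and levels set across them are given side by side. All 11 T-lineage markers measured, of 14 listed, averaged at least 1 TPM in the DMSO groups of the 4 lines. Of 10 myeloid markers, CD68 alone reached 1 TPM there, with the summed list at 3.38 to 12.3 TPM per DMSO library at 6 h. In bulk RNA, fewer cells with a transcript and less transcript per cell cannot be told apart. The guides lowered SMARCA4 from 97.5 ± 2.41 TPM (SD, n = 3) with gAAVS1 to 44.2 ± 1.63 with gSMARCA4 and 49.9 ± 2.35 with gSMARCA4_A2, and ARID1B from 22.7 ± 0.525 to 11.9 ± 0.993 with gARID1A_1B. ARID1A stood at 94.4 ± 0.697 TPM with gAAVS1, 83.1 ± 3.38 with gARID1A and 101 ± 5.07 with gARID1A_1B, and SMARCA2 at 21.8 ± 0.931 with gAAVS1 and 22.4 ± 0.288 with gSMARCA4_A2. Message levels do not show whether a frameshifted protein is lost.

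In DMSO at 6 h, 6 members (RGS16, KCNK17, OSM, SCEL, ACP5 and MMP9) reached a mean of 5 TPM in 1 line, and 4 (BHLHE23, MAL, RASAL1 and CD300A) in 3 lines. No member reached it in all 4. Of the 40 pairs of a member and a line, 18 were at 5 TPM or more. In 17 of these 18 every BRM014 library lay below every DMSO library, in 16 the BRM014 mean was under 50% of the DMSO mean, and in 11 it was under 20%. The share of all tested genes called lower at 6 h (limma, adjusted p under 0.05) was 20.7% in Jurkat, 19.3% in TALL-1, 15.2% in KOPT-K1 and 20.9% in CCRF-CEM. Called and at least 2-fold lower were 1.54% in Jurkat, 3.76% in TALL-1, 2.31% in KOPT-K1 and 3.54% in CCRF-CEM. These shares count calls, and a share of all genes by overlap or by percent of DMSO is not given. Since the rule used these contrasts, nothing is read from the comparison. The pair nearest above the 5 TPM line was MAL in Jurkat, at 5.94 TPM in DMSO and 2.64 with BRM014. The nearest below were OSM in CCRF-CEM, from 2.37 to 0.303 TPM, RGS16 in Jurkat, from 2.34 to 1.68, and KCNK17 in KOPT-K1, from 2.32 to 0.140.

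**Figure D1:**
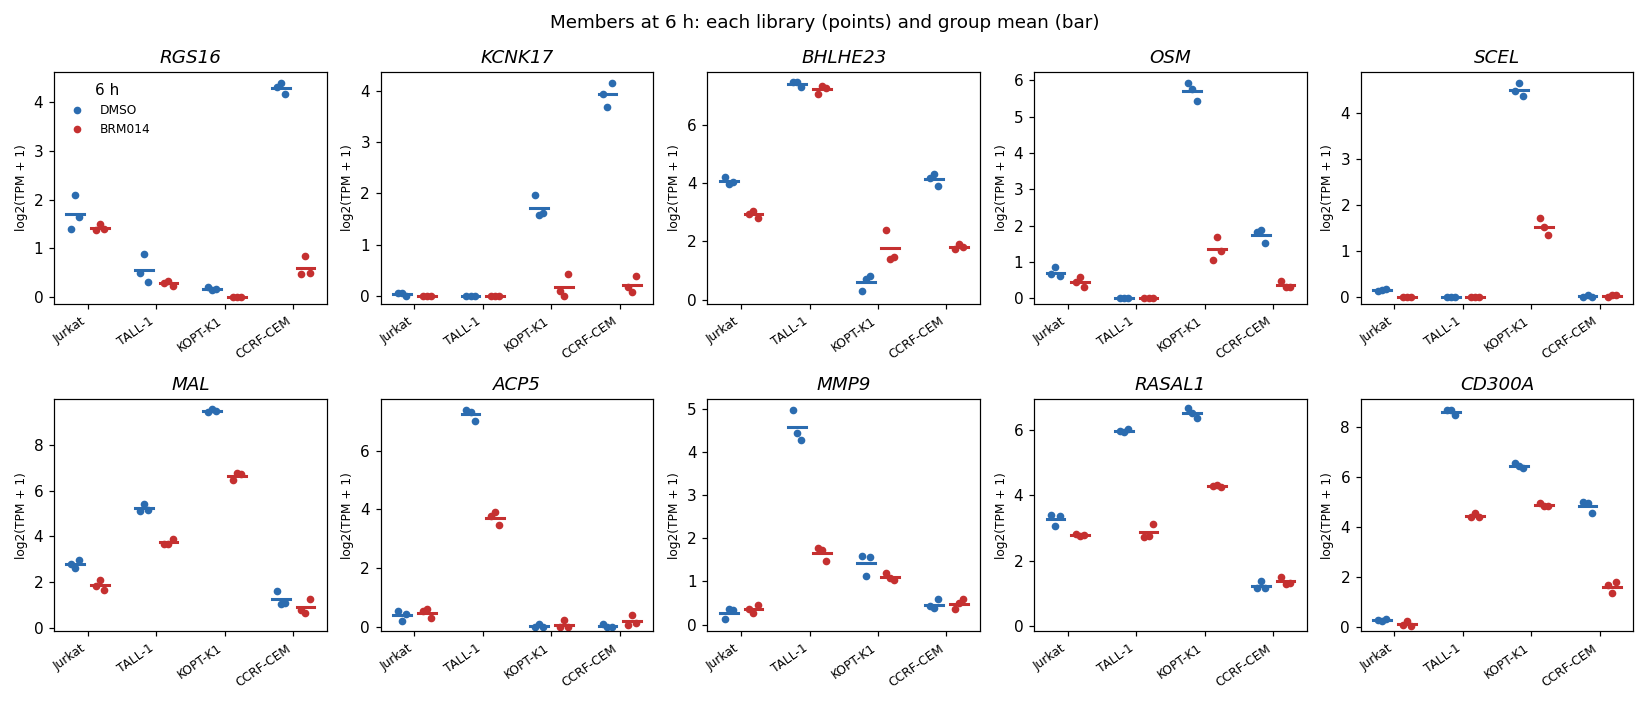
Each panel plots 1 member as log2(TPM + 1) in the 4 lines at 6 h, with DMSO libraries in blue, BRM014 libraries in red and a bar at the group mean. A member stands high in 1 or 3 lines and lower in the rest, and BHLHE23 in TALL-1 is the high pair whose colours overlap.

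CCRF-CEM carried the signalling brake RGS16 and the potassium channel KCNK17. RGS16 speeds GTP hydrolysis by G protein alpha subunits and so ends signalling from G protein-coupled receptors. RGS16 in CCRF-CEM was at 19.0, 20.2 and 17.1 TPM in DMSO and at 0.383, 0.795 and 0.400 TPM with BRM014, or 2.80% of the DMSO mean. In the other lines it was low in DMSO already, between 1.62 and 3.28 TPM in Jurkat, 0.228 and 0.847 in TALL-1 and 0.106 and 0.142 in KOPT-K1. KCNK17 encodes a background potassium channel of the KCNK family, which helps set the resting membrane potential. KCNK17 in CCRF-CEM was at 14.4, 11.8 and 16.8 TPM in DMSO and at 0.138, 0.0635 and 0.319 with BRM014. That is 592 reads over the DMSO libraries and 8 over the BRM014 libraries, or 1.21% of the DMSO mean in TPM, and KCNK17 ranked 2 by size of fall among the 10850 genes at 5 TPM or more in that line. The same gene had 0 reads in all 6 TALL-1 libraries, where a count of 0 allows up to 0.195 TPM per DMSO library. A long noncoding gene, LOC105375047, overlaps KCNK17 and fell beside it from 10.9 to 0.115 TPM in CCRF-CEM.

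KOPT-K1 carried the cytokine OSM and the epidermal protein gene SCEL. Oncostatin M, the product of OSM, is a cytokine of the interleukin-6 family that signals through the shared receptor chain encoded by IL6ST to JAK kinases and STAT3. OSM in KOPT-K1 was at 60.1, 53.3 and 41.9 TPM in DMSO and at 1.10, 2.21 and 1.49 with BRM014. At 3.09% of the DMSO mean this was the largest proportional fall, rank 1, of the 10585 genes at 5 TPM or more in KOPT-K1. OSM had 0 reads in all 6 TALL-1 libraries and was at 0.528 to 0.817 TPM in Jurkat in DMSO. Sciellin, the product of SCEL, is a precursor of the cornified envelope of skin. SCEL in KOPT-K1 was at 21.1, 24.1 and 19.4 TPM in DMSO and at 2.29, 1.89 and 1.54 with BRM014, or 8.82% of the DMSO mean. In DMSO the other lines were at or under 0.125 TPM in each library. SCEL-AS1, which overlaps SCEL on the opposite strand, went from 4.19 to 0.208 TPM in the same libraries. Whether counting used strand is not given in the sources used here, so reads of an overlapping pair may be shared.

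TALL-1 carried ACP5 and MMP9, both better known from bone and myeloid cells. ACP5 encodes tartrate-resistant acid phosphatase, a secreted enzyme of osteoclasts and macrophages. ACP5 in TALL-1 was at 166, 159 and 127 TPM in DMSO and at 12.8, 14.1 and 10.0 with BRM014, or 8.16% of the DMSO mean. Each DMSO library of the other lines was at or under 0.443 TPM. MMP9 encodes a gelatinase that cuts denatured collagen and basement membrane. MMP9 in TALL-1 was at 30.5, 20.8 and 18.4 TPM in DMSO, the first library standing above the other two, and at 2.44, 2.33 and 1.76 with BRM014, or 9.38% of the DMSO mean. KOPT-K1 was next, between 1.20 and 2.01 TPM in DMSO. Of 10 myeloid markers in TALL-1 only CD68 averaged 1 TPM or more, at 4.86 TPM in DMSO and 6.51 with BRM014. Of 5 osteoclast markers only CTSK did, with the summed list at 0.947 to 1.45 TPM per DMSO library.

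The remaining members were shared by 3 lines at graded levels. CD300A encodes an inhibitory receptor of leukocytes that recruits phosphatases through its cytoplasmic tail. CD300A in DMSO was at 405, 400 and 356 TPM in TALL-1, at 94.0, 84.2 and 80.1 in KOPT-K1 and at 30.6, 30.4 and 22.4 in CCRF-CEM, with no overlap between neighbours in that order. With BRM014 the TALL-1 libraries fell to 20.0, 22.8 and 20.2 TPM, the CCRF-CEM libraries to 2.25, 1.57 and 2.51 and the KOPT-K1 libraries to 30.0, 27.6 and 27.9. The order of the lines in DMSO was therefore not kept with BRM014, where KOPT-K1 was highest. As a share of DMSO the 3 lines kept 5.43%, 7.59% and 33.1%. In Jurkat CD300A was at or under 0.263 TPM in each 6 h library.

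MAL encodes a small proteolipid of cholesterol-rich membranes that carries the kinase LCK to the surface of T cells. MAL in KOPT-K1 was at 689, 751 and 715 TPM in DMSO and at 86.6, 108 and 103 with BRM014, or 13.8%. In TALL-1 it was at 33.6, 41.5 and 34.2 and then at 11.8, 11.9 and 13.7 TPM, or 34.2%. In Jurkat it was at 5.91, 5.18 and 6.75 and then at 2.54, 3.23 and 2.15 TPM, or 44.4%. The proportional fall was thus larger where the DMSO level was higher, over 3 lines, and MAL in KOPT-K1 with BRM014 still stood above MAL in TALL-1 without it. CCRF-CEM had 1.04 to 2.04 TPM in DMSO and 0.561 to 1.41 with BRM014, groups that overlap.

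RASAL1 encodes a GTPase-activating protein that returns RAS to its inactive form. RASAL1 in KOPT-K1 was at 99.9, 89.5 and 80.6 TPM in DMSO and at 18.5, 18.8 and 17.9 with BRM014, or 20.5%. In TALL-1 it was at 61.4, 60.1 and 63.4 and then at 5.63, 5.79 and 7.73 TPM, or 10.4%. In Jurkat it was at 9.53, 7.35 and 9.25 and then at 6.03, 5.80 and 5.91 TPM, or 67.9%, the smallest of the 17 falls without overlap. CCRF-CEM held 1.24 to 1.60 TPM in DMSO and 1.46 to 1.81 with BRM014, so no loss was seen where the gene was low.

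BHLHE23 encodes a basic helix-loop-helix transcription factor known from the developing retina and brain, and its response depended most on the line. TALL-1 had by far the highest level, 175, 175 and 157 TPM in DMSO, and kept 133, 160 and 153 TPM with BRM014, 88.0% of the mean with overlapping groups. CCRF-CEM went from 17.0, 19.1 and 13.8 to 2.33, 2.77 and 2.47 TPM, or 15.2%. Jurkat went from 17.5, 14.8 and 15.3 to 6.66, 7.21 and 5.99 TPM, or 41.7%. The DMSO libraries of CCRF-CEM and Jurkat overlap, so these lines cannot be ordered. KOPT-K1 went the other way, from 0.220, 0.614 and 0.764 to 4.29, 1.63 and 1.78 TPM, with every BRM014 library above every DMSO library.

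**Figure D2:**
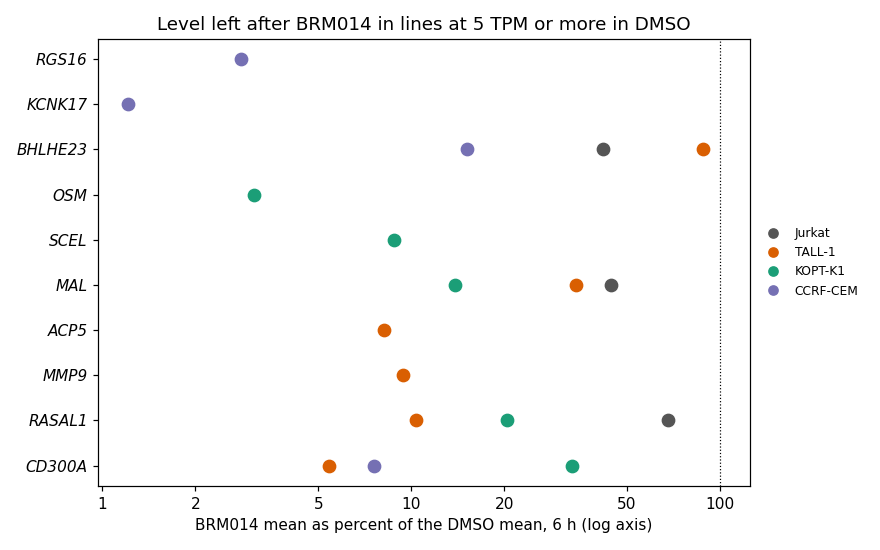
Each point is 1 of the 18 pairs of a member and a line at 5 TPM or more in DMSO, placed by its BRM014 mean as a percent of its DMSO mean on a log axis, coloured by line, with the dotted line at no change. The points run from 1.21% (KCNK17 in CCRF-CEM) to 88.0% (BHLHE23 in TALL-1), and the 3 Jurkat points lie between 41.7% and 67.9%.

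Over the lines, the median share left was 5.20% for the 4 high members of CCRF-CEM, 9.87% for the 6 of TALL-1, 13.8% for the 5 of KOPT-K1 and 44.4% for the 3 of Jurkat. The median over all genes at 5 TPM or more was between 102% and 104% of DMSO in each line, and these are descriptions of chosen genes. The medians rest on different members in each line, and Jurkat differs in kit as well. MAL and RASAL1 kept a larger share in Jurkat than in TALL-1 and KOPT-K1. BHLHE23 kept 41.7% in Jurkat, more than the 15.2% in CCRF-CEM and less than the 88.0% in TALL-1.

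After 8 d of BRM014 in Jurkat, a contrast the choice of members did not use, BHLHE23 and MAL were lower and RASAL1 was higher than in DMSO. Only RGS16, BHLHE23, MAL and RASAL1 reached 1 TPM in 3 or more Jurkat libraries, the minimum for a test. The 6 others were not tested there. Of the 4 tested, 2 were called lower and 1 higher by limma on log2(TPM + 1), where the share of all 17936 genes called was 59.9%, with 23% lower (30.7% after median-ratio rescaling) and 36.9% higher (29.6% after rescaling). A called share of this size in a background of this size is not a result about the members as a group.

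BHLHE23 was at 16.6, 16.8 and 14.1 TPM in DMSO at 8 d and at 6.56, 6.05 and 5.52 with BRM014, without overlap. It fell by 1.26 ± 0.09 on the log2 scale (SE), with a limma adjusted p of 1.97e-10. The 8 d levels lie close to the 6 h levels of 5.99 to 7.21 TPM in the same line. MAL was at 10.5, 8.50 and 5.87 TPM in DMSO and 4.37, 3.62 and 4.91 with BRM014, again without overlap although the DMSO libraries spread widely. It fell by 0.78 ± 0.19 on the log2 scale (limma adjusted p = 0.00156).

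RASAL1 was at 7.64, 8.89 and 9.02 TPM in DMSO at 8 d and at 11.9, 9.97 and 10.5 with BRM014, every treated library above every control. It was higher by 0.31 ± 0.08 on the log2 scale (limma adjusted p = 0.00206). At 6 h in the same line it had been lower, and the difference between the 2 times was not tested. RGS16 was at 4.60, 2.25 and 2.35 TPM in DMSO and 2.62, 3.25 and 2.59 with BRM014, overlapping, and was not called (log2 difference -0.05 ± 0.17, limma adjusted p = 0.826). MMP9, below the minimum for a test, was at 0.420, 0.252 and 0.0942 TPM in DMSO and at 0.972, 1.23 and 0.849 with BRM014.

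With the guides, BHLHE23 and RASAL1 were lower than with gAAVS1 in all 4 guide groups and MAL in 3, while RGS16 was higher in 1. The 4 comparisons share the same gAAVS1 libraries and are given side by side. Called lower were 3 of the 4 tested members with gARID1A (background 13.2% lower, 10.9% after median-ratio rescaling), 3 with gARID1A_1B (23.1%, with RGS16 higher against a background of 17% higher), 3 with gSMARCA4 (15.8%, 20.3% after rescaling) and 2 with gSMARCA4_A2 (21.1%, 33.8% after rescaling). Rescaling moved the median of all genes with gSMARCA4_A2 from 0.11 to -0.03 on the log2 scale. No called member changed direction with it.

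BHLHE23 stood at 16.6, 13.8 and 15.1 TPM with gAAVS1. It was at 6.31, 7.60 and 8.23 with gARID1A, 5.92, 6.21 and 5.72 with gARID1A_1B, 7.86, 6.51 and 6.34 with gSMARCA4, and 6.47, 6.54 and 6.04 with gSMARCA4_A2. All 12 guide libraries lay below the 3 controls. The log2 falls were 0.95, 1.22, 1.03 and 1.13 in that order (SE 0.09 each), with limma adjusted p-values of 1.66e-07, 1.07e-09, 1.43e-08 and 1.22e-09. BHLHE23 was thus within 5.52 to 8.23 TPM in the guide libraries and the 8 d inhibitor libraries alike. The further fall of gARID1A_1B against gARID1A, 0.26 ± 0.09, was at the limit of a call (limma adjusted p = 0.0497) and was lost in 5 of 6 fits that left out 1 library, in which adjusted p ran from 0.0134 to 0.223. Of all genes, 10.6% were called lower and 10.3% higher between these guides.

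RASAL1 separated the guides more. It was at 18.7, 20.1 and 18.2 TPM with gAAVS1, 6.78, 7.38 and 7.27 with gARID1A and 6.01, 5.13 and 5.20 with gARID1A_1B. With gSMARCA4 it was between 13.5 and 14.8 TPM, and with gSMARCA4_A2 at 10.5, 9.94 and 9.62. No 2 of these 5 groups overlap. Against gAAVS1 the log2 falls were 1.30, 1.63, 0.39 and 0.86 (SE 0.08 each), with limma adjusted p-values of 1.54e-10, 6.47e-13, 0.000496 and 7.36e-09. The second guide target lowered it further in both series: by 0.34 for gARID1A_1B against gARID1A (limma adjusted p = 0.00435) and by 0.47 for gSMARCA4_A2 against gSMARCA4 (limma adjusted p = 0.000112). Of all genes, 12.3% were called lower and 26.5% higher in the latter (24.1% and 15.3% after median-ratio rescaling). The gAAVS1 level of RASAL1 was above the 7.35 to 9.53 TPM of the Jurkat DMSO groups.

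MAL was at 4.91, 2.67 and 4.60 TPM with gAAVS1, where replicate 2 stood below the others. It was at 1.92, 1.16 and 2.83 with gARID1A, 2.09, 2.25 and 2.61 with gARID1A_1B, 2.26, 2.28 and 2.49 with gSMARCA4 and 5.02, 5.34 and 5.24 with gSMARCA4_A2. The first 3 guides gave log2 falls of 0.78, 0.58 and 0.57 (SE 0.19 each; limma adjusted p = 0.00635, 0.0212 and 0.024). The gARID1A libraries overlapped gAAVS1, and those of the other 2 guides did not. These calls depended on single libraries. For gARID1A the adjusted p was 0.107 when only both groups entered the fit, and the adjusted p rose to 0.0559 without gARID1A replicate 2. For gARID1A_1B it rose to 0.108 and 0.0857 without gAAVS1 replicates 1 and 3, and to 0.069 and 0.0551 without gARID1A_1B replicates 1 and 2. For gSMARCA4 it rose to 0.116 and 0.0980 without gAAVS1 replicates 1 and 3, and to 0.0622 and 0.0607 without gSMARCA4 replicates 1 and 2. With gSMARCA4_A2 MAL was not called against gAAVS1 (log2 difference 0.32 ± 0.19, limma adjusted p = 0.157). Set against gSMARCA4, it was higher with gSMARCA4_A2 by 0.89 ± 0.19 (limma adjusted p = 0.00119), with all 3 libraries of the double guide above the 3 of the single guide.

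RGS16 was called with 1 guide group. It was at 2.07, 1.65 and 1.57 TPM with gAAVS1 and at 3.43, 3.90 and 4.34 with gARID1A_1B, higher by 0.82 ± 0.17 on the log2 scale (limma adjusted p = 0.000409). With gARID1A it was at 2.34, 2.62 and 2.43 TPM and with gSMARCA4 at 2.67, 2.36 and 2.33, each library above the controls, and neither was called (limma adjusted p = 0.171 and 0.128). Fitted with the compared groups alone, adjusted p was 0.0448 and 0.0285. The rise of gARID1A_1B over gARID1A, 0.49 ± 0.17 (limma adjusted p = 0.0379), was lost in 5 of 6 fits without 1 library, with adjusted p between 0.0448 and 0.132.

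**Figure D3:**
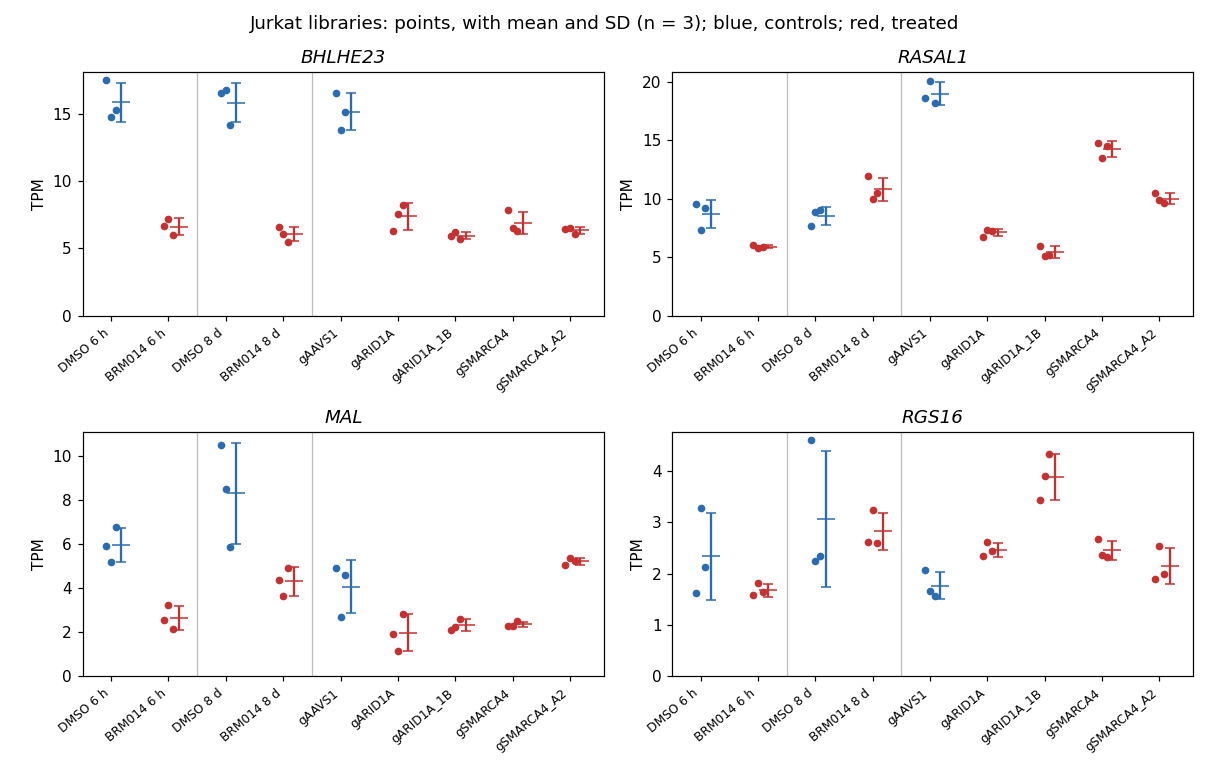
The panels plot TPM of BHLHE23, RASAL1, MAL and RGS16 in the 9 Jurkat groups, each library as a point beside the mean and SD (n = 3), controls in blue and treated groups in red. BHLHE23 sits between 5.52 and 8.23 TPM in all red groups, while RASAL1 ranges from 5.13 TPM with gARID1A_1B to 14.8 with gSMARCA4 and exceeds its control after 8 d of BRM014.

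The members below the minimum for a test in Jurkat stayed low in its guide libraries. ACP5 was at 0.255 to 0.725 TPM, OSM at 0.250 to 0.711, MMP9 at 0.203 to 1.06, SCEL at 0.0172 to 0.505, KCNK17 at 0 to 0.309 and CD300A at 0 to 0.336, gAAVS1 included. SCEL, though low, had 0.293, 0.196 and 0.209 TPM with gAAVS1, 0.0188, 0.0489 and 0.0363 with gARID1A and 0.422, 0.401 and 0.505 with gSMARCA4, groups that do not overlap. At these levels a library holds few reads of the gene, and no call rests on them.

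The nearest gene at least 2-fold lower beside RASAL1 was DTX1, 1.25 kb away. DTX1 encodes Deltex-1, a ubiquitin ligase of the Notch pathway, and Notch activation is a hallmark of T-ALL. At 6 h DTX1 fell from 274 ± 9.90 to 30.8 ± 4.20 TPM (SD, n = 3) in TALL-1, from 345 ± 32.4 to 68.3 ± 3.07 in KOPT-K1, from 20.7 ± 3.25 to 8.13 ± 0.436 in Jurkat and from 4.25 ± 0.687 to 1.32 ± 0.454 in CCRF-CEM, with no overlap in any line. After 8 d in Jurkat it was higher, at 27.2 ± 1.36 against 17.4 ± 2.81 TPM (log2 difference 0.62 ± 0.11, limma adjusted p = 3.9e-05). With the guides it fell by 1.85 (gARID1A), 2.34 (gARID1A_1B), 0.41 (gSMARCA4) and 0.98 (gSMARCA4_A2) on the log2 scale (SE 0.11 each), with limma adjusted p-values of 6.82e-11, 2.75e-13, 0.00408 and 9.56e-08. Its means were 48.5 TPM with gAAVS1, 36.1 with gSMARCA4, 24.1 with gSMARCA4_A2, 12.7 with gARID1A and 8.82 with gARID1A_1B, comparisons that share the gAAVS1 libraries. In CCRF-CEM, where DTX1 fell, RASAL1 was at 1.36 TPM in DMSO and 1.59 with BRM014.

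**Figure D4:**
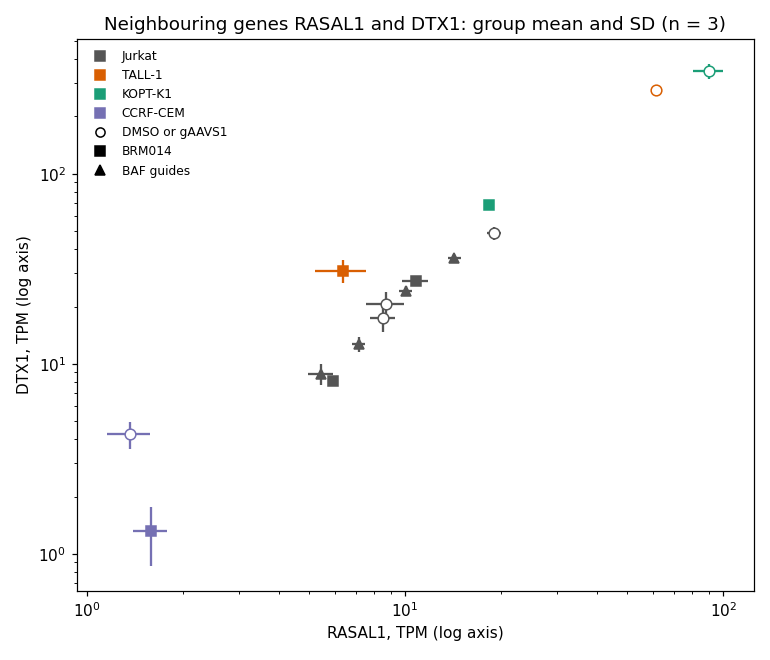
Each symbol is 1 of the 15 groups, with mean RASAL1 on the x axis and mean DTX1 on the y axis, both in TPM on log axes with the SD (n = 3), coloured by line, with open circles for controls, squares for BRM014 and triangles for guides against BAF genes. Among Jurkat groups gAAVS1 lies highest in both genes and gARID1A_1B has a DTX1 mean of 8.82 TPM, and the CCRF-CEM pair differs in DTX1 (4.25 against 1.32 TPM) more than in RASAL1.

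A minority of neighbours was at least 2-fold lower at 6 h, beside members that fell and, in part, beside members that did not. Within 100 kb of a member, 45 genes were tested in the table of 3 lines and 43 in Jurkat, members excluded. At 6 h, 9 of these were at least 2-fold lower (limma, adjusted p under 0.05) in CCRF-CEM, 8 in TALL-1, 6 in KOPT-K1 and 4 in Jurkat, against 3.54%, 3.76%, 2.31% and 1.54% of all tested genes. None was called 2-fold higher in these 4 comparisons. CD300C in TALL-1 is counted among the lower ones, although it reached the minimum for a test only through the DMSO libraries there. Such a gene can only come out lower. Neighbours of 1 member are not independent of each other, and some overlap the member itself. Without the 2-fold limit, 16 neighbours were called lower and 10 higher in CCRF-CEM, 14 and 9 in TALL-1, 8 and 13 in KOPT-K1 and 13 and 10 in Jurkat, with medians between -0.08 and 0.05 on the log2 scale. Of all tested genes, 20.9% were called lower and 28.9% higher in CCRF-CEM, and 19.3% and 26.6% in TALL-1. The shares were 15.2% and 22.9% in KOPT-K1 and 20.7% and 26.8% in Jurkat. Of those 2-fold lower, SLC17A9, HAR1B and HAR1A in TALL-1 lie beside BHLHE23, at 88.0% of DMSO there, and DTX1 and LOC105373488 in CCRF-CEM lie beside RASAL1 and MAL, whose groups overlap there.

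Near OSM, in KOPT-K1, LIF, the sister cytokine 16.1 kb away, fell from 11.6 to 4.09 TPM (log2 difference -1.29, limma adjusted p = 7.17e-07) and CASTOR1, an arginine sensor of the mTOR pathway, from 25.5 to 8.63 TPM (-1.46, limma adjusted p = 5.66e-08). In CCRF-CEM, where OSM was low and went from 2.37 to 0.303 TPM, CASTOR1 was at 30.5 and 30.1 TPM. In Jurkat CASTOR1 was lower with gARID1A_1B than with gARID1A, at 9.43 against 23.5 TPM (-1.23, limma adjusted p = 5.9e-09). OSM was at 0.250 to 0.689 TPM in the libraries of these guides. KCNK5, a channel gene 69.5 kb from KCNK17, fell in CCRF-CEM from 26.8 to 3.07 TPM (-2.77, limma adjusted p = 4.79e-12). It fell also in KOPT-K1, from 34.7 to 14.7 TPM, and in Jurkat, from 14.8 to 5.42, where KCNK17 was at or under 0.0428 TPM in DMSO. In Jurkat KCNK5 was lower after 8 d and with each of the 4 guides too, by 0.43 to 1.12 on the log2 scale. CD300C, a receptor gene 49.8 kb from CD300A, fell in TALL-1 from 5.24 to 0.292 TPM. It was listed at 0 in KOPT-K1 and CCRF-CEM, which express CD300A. CD300C thus reached the minimum for a test only through the TALL-1 DMSO libraries and could only come out lower, so its fall is a description. SLC12A5-AS1, which overlaps MMP9, fell in TALL-1 from 7.74 to 2.45 TPM.

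Around BHLHE23 the neighbours that changed differed between lines. SLC17A9, the vesicular ATP transporter gene 36.3 kb away, fell in CCRF-CEM from 61.7 to 6.41 TPM (-3.09, limma adjusted p = 3.78e-11). It fell in TALL-1 from 2.47 to 0.407 TPM, although BHLHE23 was kept there. The noncoding gene LOC105372718, 18.5 kb away, fell in CCRF-CEM from 5.86 to 1.14 TPM and in Jurkat from 8.78 to 3.83 at 6 h. In Jurkat it was lower by 1.82 after 8 d (limma adjusted p = 1.53e-10) and by 1.39 to 1.78 with the 4 guides. HAR1A, a noncoding gene of the developing cortex 94.3 kb away, fell in TALL-1 from 12.3 to 3.83 TPM and in CCRF-CEM from 7.86 to 2.48, and rose in KOPT-K1 from 1.70 to 2.95 (log2 difference 0.55, limma adjusted p = 0.0457). LINC01749, 73.0 kb away, fell in Jurkat from 3.71 to 1.19 TPM and rose in TALL-1 from 7.24 to 9.70 (log2 difference 0.38, limma adjusted p = 0.0195).

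**Figure D5:**
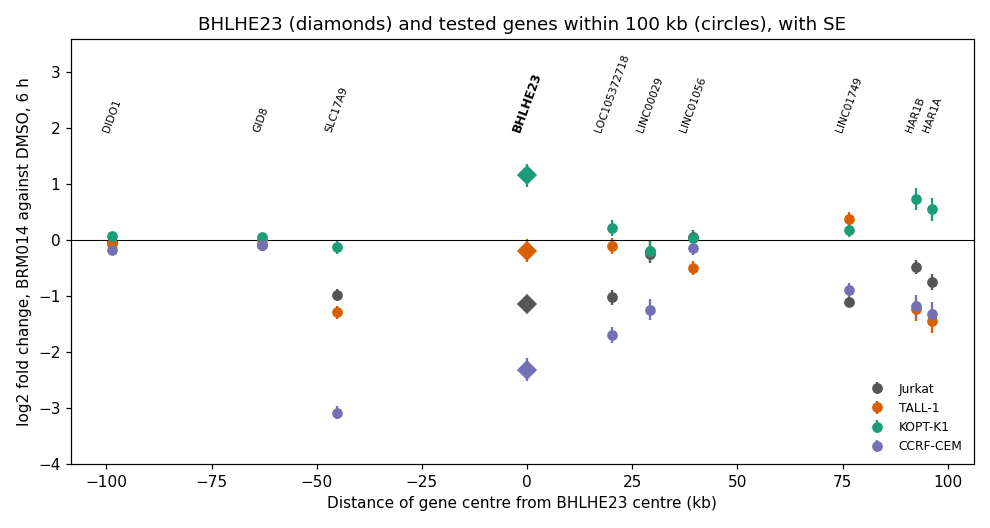
The x axis is the distance in kb of each tested gene's centre from that of BHLHE23, and the y axis the log2 difference between BRM014 and DMSO at 6 h with its SE, coloured by line, diamonds for BHLHE23 and circles for its neighbours. SLC17A9 in CCRF-CEM is lowest at -3.09, and DIDO1 and GID8 lie near 0 in all 4 lines.

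Relatives of each member by function were read from lists that leave the member out. The lists were chosen with earlier results of these data known, so their counts are given as description and support nothing. At 6 h the share of all genes called higher was 26.8% in Jurkat, 26.6% in TALL-1, 22.9% in KOPT-K1 and 28.9% in CCRF-CEM. After median-ratio rescaling 20.4% were lower and 16.9% higher in KOPT-K1, and 26.0% lower and 22.0% higher in CCRF-CEM. In the list of RGS proteins and G protein alpha subunits, 9 of 17 tested genes fell and 3 rose in CCRF-CEM at 6 h (median log2 difference -0.26 against 0.05 over all genes; 20.9% of all genes were called lower). GNA15, an alpha subunit of blood cells, fell from 286 to 73.6 TPM there, from 441 to 62.9 in KOPT-K1 and from 121 to 12.7 in TALL-1. In the list of potassium channels all 3 tested of 14 listed fell in CCRF-CEM, with KCNK6 going from 14.1 to 3.01 TPM. In the OSM pathway list 5 of 18 tested genes fell and 8 rose in KOPT-K1, with a median log2 difference of 0.15 against 0.04 over all genes. PIM2, a kinase downstream of STATs, rose there from 9.56 to 30.9 TPM, while PIM1, a related kinase, fell from 258 to 96.5. In Jurkat 15 of 22 genes of the OSM pathway rose after 8 d and 2 fell, against 36.9% higher and 23% lower over the whole table (29.6% and 30.7% after rescaling). The list's median log2 difference was 0.48 against 0.08 over all genes, with the feedback inhibitor SOCS1 going from 0.846 to 13.4 TPM.

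For CD300A, the list of its family and of inhibitory phosphatases fell in 6 of 6 tested genes in TALL-1, 4 of 6 in KOPT-K1, 4 of 6 in CCRF-CEM and 5 of 5 in Jurkat at 6 h. The shares of all genes called lower were 19.3%, 15.2%, 20.9% and 20.7% in that order. The list's median log2 differences were -0.62, -0.37, -0.35 and -0.59, against 0.03 to 0.05 over all genes. PTPN6, a phosphatase that CD300A recruits, fell from 43.6 to 25.7 TPM in TALL-1, from 80.0 to 37.2 in KOPT-K1, from 105 to 36.8 in CCRF-CEM and from 113 to 22.2 in Jurkat. After 8 d in Jurkat PTPN6 was higher than in DMSO, at 125 against 33.1 TPM (limma adjusted p = 4.74e-10). The DMSO level itself stood at 113 TPM at 6 h and at 33.1 at 8 d, and the difference between times was not tested. Among RAS proteins and their GTPase-activating proteins, 7 of 16 tested genes fell and 1 rose in TALL-1, where 19.3% of all genes were called lower and 26.6% higher (list median -0.20 against 0.03). RASAL3 fell in CCRF-CEM from 40.9 to 16.7 TPM and in KOPT-K1 from 43.4 to 24.0, and like RASAL1 was higher after 8 d in Jurkat, 28.6 against 5.97 TPM.

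The lists below are read against 19.3% of all genes called lower and 26.6% higher in TALL-1 and 15.2% and 22.9% in KOPT-K1. Relatives of MAL fell in 4 of 8 tested genes and rose in 2 in TALL-1, with CMTM7 going from 11.5 to 2.50 TPM, and fell in 3 of 8 in KOPT-K1. Of metalloproteinases and their inhibitors, 2 of 9 fell and 2 rose in TALL-1, shares near those of all genes, and TIMP2 went from 23.7 to 17.4 TPM. Of acid phosphatases and lysosomal hydrolases near ACP5 in function, 3 of 10 fell and 3 rose in TALL-1, with cathepsin S (CTSS) going from 7.50 to 2.43 TPM. The cornified envelope list, to which sciellin belongs, had 1 of 6 tested genes lower and 2 higher in KOPT-K1, and EVPL, encoding envoplakin, went from 33.5 to 15.1 TPM. Of the neural helix-loop-helix list 1 gene was tested in TALL-1, BHLHE40, which fell from 7.01 to 2.48 TPM there.

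The genes whose pattern over the 18 libraries of TALL-1, KOPT-K1 and CCRF-CEM was most like a member's are given as a description, since libraries of a line share its background. For RGS16 it was SLC32A1 (r = 0.99), at 5.01 TPM in CCRF-CEM in DMSO and 0.229 with BRM014. In these 3 lines both genes averaged under 1 TPM in every group but CCRF-CEM in DMSO. Genes high in 1 group alone give a high r with each other, and each match was picked as the closest of all genes searched. The values of r therefore support nothing. For KCNK17 the nearest were FERMT2 (r = 0.96) and VPREB1 (r = 0.96), the latter a surrogate light chain gene of early B cells that went from 14.9 to 1.02 TPM in CCRF-CEM. OSM was matched by AHNAK (r = 0.98), at 10.3 and 0.879 TPM in KOPT-K1, and SCEL by CHST1 (r = 0.996). MAL was matched by PIM1 (r = 0.99), at 258 and 96.5 TPM in KOPT-K1. ACP5 was matched by PRKG2 (r = 0.996), at 50.8 and 8.84 TPM in TALL-1, MMP9 by AMOTL2 (r = 0.97), RASAL1 by RTL6 (r = 0.99), CD300A by UBQLN4 (r = 0.98) and BHLHE23 by ANGEL1 (r = 0.98). Between members the closest pairs were OSM with SCEL (r = 0.94), ACP5 with MMP9 (r = 0.92) and MAL with RASAL1 (r = 0.91).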

How the data were processed

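The authors deposited 2 tables of TPM values, 1 for Jurkat and 1 for the other 3 lines. Per the submitters' processing notes the tools were HISAT2 2.2.1, featureCounts 2.0.3 and DESeq2 1.38.2 and the build hg38, whose roles and settings are not given in the sources used here. TPM multiplied by the deposited gene length gave whole reads for 100% of values (within 0.01). All groups of a table were fitted together with limma 3.58.1 (R 4.3.3) on log2(TPM + 1), with a trended, robust variance, for genes at 1 TPM or more in at least 3 libraries (17936 in Jurkat, 16241 in the other lines). Benjamini-Hochberg adjusted p under 0.05 over all of these was a call. The fit was tested on simulated data. Fold changes on this scale understate the change of low genes. The members and lists were chosen with earlier results of these data known. Named are all members, up to 3 genes per list and comparison with the largest called change at 5 TPM or more, neighbours changed at least 2-fold, and the 2 genes most like each member. Some genes that this rule names are not reported here. Which of their values to print for contrast was decided after these were seen. P-values set a difference of group means against the spread of libraries within groups, estimated over all groups of a table. They speak for these libraries only. The fits reported above used no pairs, and a replicate block was run only as an alternative. The mark for pairing was that all 3 correlations of the deviations of same-numbered libraries passed 0.1. It was met in CCRF-CEM (0.12, 0.29 and 0.45) and in no other comparison. Python 3.11.15 drew the figures.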

Additional observations from a re-analysis of the deposited data

Results flagged for a closer look

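BHLHE23 was marked because every BRM014 library lay below every DMSO library in Jurkat at 6 h, in Jurkat at 8 d and in CCRF-CEM at 6 h, while in KOPT-K1 every BRM014 library lay above every DMSO library, at 481% of the DMSO mean. The KOPT-K1 means were 0.533 and 2.56 TPM, and the difference between lines was not tested.

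MMP9 was lower in all BRM014 libraries of TALL-1 at 6 h and higher in all BRM014 libraries of Jurkat at 8 d, at 398% of the DMSO mean, from 0.255 to 1.02 TPM. The lines, times and tables differ together here, and the difference was not tested.

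RASAL1 was lower in all BRM014 libraries of Jurkat, TALL-1 and KOPT-K1 at 6 h and higher in all BRM014 libraries of Jurkat at 8 d, at 127% of the DMSO mean. The difference between times was not tested.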

How the results depend on the processing

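No called member changed direction under the alternatives run. The uncalled values of RGS16 at 8 d (-0.18 to 0.21) and of MAL for gARID1A_1B against gARID1A (-0.02 to 0.40) crossed 0 without 1 library. Of the alternative values of tested members, 381 kept their side of the threshold, 29 lost it and 3 gained it. Without the filter on low values the members called were 5 at 8 d (3 with it), 6 with gARID1A (3), 7 with gARID1A_1B (4), 5 with gSMARCA4 (3), 5 with gSMARCA4_A2 (2) and 4 for gSMARCA4_A2 against gSMARCA4 (2), since members under 1 TPM then enter. The added calls went both ways. CD300A at 8 d was then lower, and MMP9 higher by 0.69 (limma adjusted p = 7.39e-06). SCEL, KCNK17 and CD300A were lower with gARID1A and gARID1A_1B. SCEL and ACP5 were higher with gSMARCA4. With gSMARCA4_A2, ACP5 and MMP9 were higher and KCNK17 lower, and against gSMARCA4, MMP9 was higher and SCEL lower. The share of all genes called without the filter is not given, so nothing is read from these counts. For gARID1A_1B against gARID1A the 3 members called became 1 with a replicate block and 1 to 2 without 1 library. With the block RASAL1 was no longer called there (adjusted p = 0.0551) or at 8 d (0.0604), and RGS16 was called with gSMARCA4 (0.0225). In these Jurkat comparisons the samples share only a number. Median-ratio rescaling moved the share of higher among called genes from 61.6% to 49.1% at 8 d, 37.0% to 50.5% with gARID1A, 61.4% to 51.0% with gSMARCA4, 65.9% to 45.5% with gSMARCA4_A2, 68.3% to 38.9% for gSMARCA4_A2 against gSMARCA4, 60.1% to 45.4% in KOPT-K1 and 58.0% to 45.8% in CCRF-CEM at 6 h. Leaving out mitochondrial genes moved it from 49.5% to 66.3% for gARID1A_1B against gARID1A. Of the 6 h log2 values, 250 alternatives stayed within the replicate spread and 20 moved past it, most with a pseudocount of 0.1 or with limma-voom on recovered reads, which gave larger falls. RGS16 in CCRF-CEM could not be fitted without a DMSO library, since it then misses the filter. The cause was not tested for any other move. Levels under about 1 TPM rest on few reads.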
